A study of Mus musculus and Acomys cahirinus with 25 samples.

Results

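The genes described are 10 genes that mark macrophages and their activation states, Adgre1, Csf1r, Cd68, Mrc1, Cd163, Arg1, Nos2, C1qa, C1qb and C1qc. They were taken by symbol from the 24500 genes counted in each of 25 libraries, and all 10 symbols were found. Macrophages are phagocytes that enter a skin wound as monocytes or grow from cells resident in the dermis, clear debris, and pass from an early inflammatory state to later states linked to repair. Csf1r, the receptor for CSF1 and IL-34, carries the signal on which most macrophages depend for survival. Adgre1 encodes the surface protein F4/80, and Cd68 encodes a glycoprotein of the lysosome. Mrc1 and Cd163 encode endocytic receptors, CD206 for mannosylated ligands and CD163 for haptoglobin-hemoglobin complexes, and both are commonly read as marks of alternatively activated or resident macrophages. Nos2 and Arg1 encode enzymes that compete for arginine, the former making nitric oxide and the latter ornithine and urea, and are the usual pair by which classical and alternative activation are told apart in mouse. C1qa, C1qb and C1qc encode the chains of C1q, the first component of the classical complement pathway, which tissue macrophages make and which also tags apoptotic cells for uptake.

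The study asked why hair follicles form anew in the center of large laboratory mouse wounds and across wounds of the spiny mouse (Acomys cahirinus). It separated epidermis from dermis before sequencing the RNA of each. Its laboratory mice (Mus musculus) were mainly C57BL/6. Laboratory mouse wounds were sampled at post-wound day (PWD) 14. Wild-type epidermis came from the wound center (2 libraries) and wound margin (2), and wild-type dermis from the wound center (5) and wound margin (2). A further 2 dermis libraries came from the wound center of K14-Cre-Twist1 mice, in which Cre recombinase driven by the keratin 14 promoter deletes Twist1 in keratinocytes and their descendants, so that dermal cells keep the gene. Of the 5 wild-type center dermis libraries, replicates 1 and 2 carry library numbers next to those of the margin libraries (region set) and replicates 3 to 5 next to those of the K14-Cre-Twist1 libraries (genotype set) in the study's list of libraries. Which libraries were sequenced together is not given in the sources used here. The controls of the K14-Cre-Twist1 mice were wild-type Twist1+/+ mice, so the wild type of the 2 sets may differ in strain. Spiny mouse wounds were taken whole, with no division into center and margin. By the labels, the days were PWD0 (unwounded skin, 1 epidermis and 2 dermis libraries), PWD14 (2 and 1), PWD21 (2 and 2) and PWD28 (1 and 1). For the wounded skin the study's list of libraries prints slightly different days, and those of the labels are used here.

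Reads on genes numbered from 19413261 to 86532134 in laboratory mouse libraries and from 5669760 to 34751956 in spiny mouse libraries. Spiny mouse reads were counted against the mouse genome, so a gene's level in spiny mouse also depends on how well its reads align there, and levels are not compared between species. All values are CPM, the reads of a gene per 1000000 reads on genes, and fold changes come from counts normalized by the TMM method. Fibroblast and keratinocyte markers fitted the labelled layers of the laboratory mouse, while adipocyte markers did not follow the layers in every group. In spiny mouse at PWD14 the 7 adipocyte markers summed to between 5160 and 6304 CPM in epidermis and to 119 CPM in dermis. The 15 fibroblast markers summed to between 96908 and 176654 CPM in laboratory mouse dermis and between 985 and 6838 CPM in the epidermis, and the 14 keratinocyte markers summed to between 158682 and 220943 CPM in that epidermis. K14-Cre-Twist1 dermis replicate 2 stood apart, with 38686 CPM of keratinocyte markers against 36.3 to 5267 CPM in the other 8 laboratory mouse dermis libraries, and values that rest on it are given with and without it. In bulk RNA, fewer macrophages and less RNA per macrophage cannot be told apart.

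The 3 C1q genes lie side by side on the minus strand of chromosome 4 (GRCm38), C1qb at chr4:136880126-136886200, C1qc at chr4:136889801-136892936 and C1qa at chr4:136895916-136898844. The locus spans 18719 bases, each gene has 3 exons, and the RefSeq table lists no other gene within it. Promoter windows of 250 bases before the transcript start were read from the RefSeq-based table on GRCm38 for 5 of the 10 genes. The 4 printed here were chosen since C1qb, C1qc and Cd68 moved together across libraries while Mrc1 did not move with them: C1qb at chr4:136886201-136886450 (minus strand), C1qc at chr4:136892915-136893164 (minus), Cd68 at chr11:69666171-69666420 (minus) and Mrc1 at chr2:14229164-14229413 (plus). Each reads 5′ to 3′ on the strand of its gene. The start used for C1qc in that table lies 22 bases inside the outer limit of the gene given above, that for Cd163 lies 15 bases inside, and those of C1qb, Cd68 and Mrc1 are the outer limits. Capitals mark GAGGAA, the core read by PU.1, the transcription factor that sets myeloid identity, on either strand, and TGCTGA, the core of the element read by MAF factors, on either strand.

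C1qb: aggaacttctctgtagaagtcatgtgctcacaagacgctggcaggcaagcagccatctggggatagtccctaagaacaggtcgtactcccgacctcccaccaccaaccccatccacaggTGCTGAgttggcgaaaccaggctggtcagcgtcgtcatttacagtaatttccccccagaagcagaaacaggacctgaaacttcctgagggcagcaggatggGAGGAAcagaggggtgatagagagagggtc
C1qc: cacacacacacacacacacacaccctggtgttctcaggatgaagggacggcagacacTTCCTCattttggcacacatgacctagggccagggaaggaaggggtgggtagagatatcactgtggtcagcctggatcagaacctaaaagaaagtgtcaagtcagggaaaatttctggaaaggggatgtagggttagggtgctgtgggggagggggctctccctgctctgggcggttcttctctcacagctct
Cd68: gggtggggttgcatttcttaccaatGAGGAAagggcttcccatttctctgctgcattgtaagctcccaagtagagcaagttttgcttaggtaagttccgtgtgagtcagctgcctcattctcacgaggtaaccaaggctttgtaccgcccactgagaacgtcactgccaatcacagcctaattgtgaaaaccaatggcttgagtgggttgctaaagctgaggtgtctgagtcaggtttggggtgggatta
Mrc1: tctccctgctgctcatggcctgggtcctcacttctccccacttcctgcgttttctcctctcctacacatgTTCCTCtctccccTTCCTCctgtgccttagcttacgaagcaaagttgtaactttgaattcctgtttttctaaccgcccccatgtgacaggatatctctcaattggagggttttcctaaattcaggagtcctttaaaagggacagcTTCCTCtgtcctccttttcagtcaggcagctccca

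The PU.1 core stood 30 bases before the C1qb start, 193 before that C1qc start on the opposite strand, 225 before the Cd68 start, and 180, 167 and 35 before the Mrc1 start, all 3 on the opposite strand. The MAF core stood 131 bases before the C1qb start and was not met in the other windows. The window of Cd163 held neither. Of 32851 windows of the same length, 23.3% held the PU.1 core, 16.1% the MAF core and 12.4% the letters TATAAA of a TATA box on either strand, which none of the 5 windows held. The PU.1 core was thus in windows of genes that moved together and of one that did not, and the letters are a description, not a bound site.

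Per kilobase of the principal transcript, which allows genes to be compared, the C1q chains led the 10 genes in laboratory mouse wound dermis. In the 5 wild-type center libraries, C1qb lay between 297 and 773 CPM per kilobase (median 450), C1qa between 205 and 570 (median 373) and C1qc between 234 and 514 (median 284), and these ranges overlapped. Cd68 followed at a median of 259 CPM per kilobase (125 to 357). Csf1r (64.5), Adgre1 (53.1) and Mrc1 (50.4) came next by their medians, with ranges that all lay below that of Cd68. The range of Adgre1 (40.2 to 83.5) overlapped those of Csf1r (63.1 to 82.1) and Mrc1 (40.9 to 56.9), which did not overlap each other. Arg1 (median 3.41), Nos2 (1.52) and Cd163 (0.770) were the lowest, so both enzymes by which activation states are usually read were minor transcripts beside the C1q chains. In the wound margin the C1q chains again led, at 246 and 315 CPM per kilobase for C1qb, and Mrc1 at 69.9 and 87.6 stood level with Cd68 at 73.7 and 81.5.

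Most of these genes differed widely in level between dermis and epidermis. The laboratory mouse epidermis libraries were read from both ends of each fragment and the dermis libraries from 1 end, so layer and read type cannot be told apart there, whereas all spiny mouse libraries were read from 1 end. In the laboratory mouse wound center, all 10 differed between the 5 dermis and 2 epidermis libraries at an FDR under 0.05, with 9 higher in dermis and Arg1 higher in epidermis, where 51.8% of all 15017 tested genes passed. The same 9 and 1 were found in the wound margin, where 47.7% of all genes passed, and in spiny mouse at PWD21, where 62.9% passed. With shares that high, the count says little about these genes, and the sizes are of more interest. The median log2 fold change of the 10 genes was 4.85 in the center, against 0.08 over all tested genes, 4.77 in the margin (all genes 0.16) and 4.35 in spiny mouse (all genes 0.06).

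**Figure D1:**
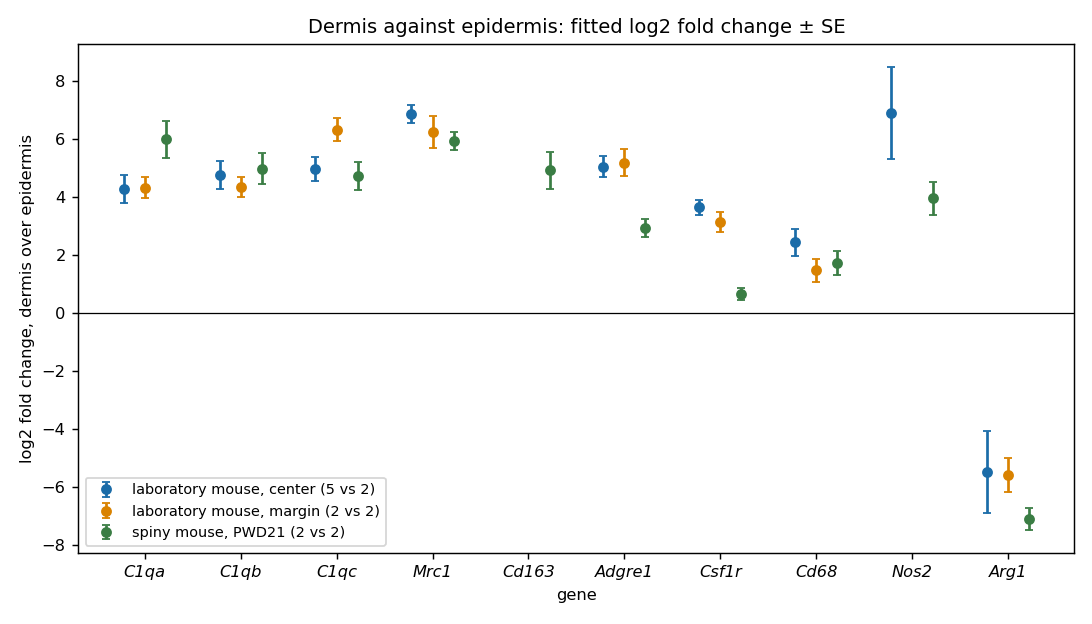
Fitted log2 fold change of dermis over epidermis for each gene (vertical axis, log2 scale; bars are ± 1 SE) in laboratory mouse wound center, laboratory mouse wound margin and spiny mouse at PWD21. Points for Cd163 (center and margin) and Nos2 (margin) are left out because no epidermis library was above the floor of 3 counts. The point for Arg1 is below 0 in all 3 comparisons, and Csf1r in spiny mouse is the nearest to 0 at 0.67.

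Mrc1 was far higher in dermis in all 3 comparisons. Its levels in laboratory mouse epidermis were 1.12 and 1.72 CPM in the center and 4.99 and 1.63 CPM in the margin, while center dermis ran from 220 to 306 CPM (median 271) and margin dermis stood at 376 and 471 CPM. No epidermis library came near a dermis library. The log2 fold change was 6.86 ± 0.32 (SE; FDR 2.45e-06) in the center and 6.24 ± 0.56 (FDR 1.78e-05) in the margin. In spiny mouse at PWD21, Mrc1 was at 151 and 97.8 CPM in dermis and 1.89 and 1.83 CPM in epidermis (log2 fold change 5.92 ± 0.30, FDR 7.09e-06). Cd163 was at 0 in all 4 laboratory mouse epidermis libraries, where 3 counts per library would be at most 0.0543 CPM in the center and 0.0850 CPM in the margin. Against the floor of its own region, mean Cd163 was at least 48.1-fold higher in center dermis, where it lay between 0 and 4.40 CPM, and at least 90.7-fold higher in margin dermis, at 8.53 and 6.89 CPM.

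The C1q chains were also dermal. C1qb was at 14.6 and 8.86 CPM in center epidermis against 323 to 841 CPM (median 490) in center dermis, a log2 difference of 4.75 ± 0.48 (FDR 4.55e-05). C1qa and C1qc differed by 4.29 ± 0.48 and 4.95 ± 0.42. In spiny mouse epidermis C1qb was at 2.01 and 1.94 CPM at PWD21 and at 0 in the single libraries of PWD0 and PWD28, where the floor of 3 counts is 0.283 and 0.308 CPM. Dermis exceeded epidermis at PWD21 by 4.97 ± 0.54 for C1qb, 5.98 ± 0.63 for C1qa and 4.74 ± 0.48 for C1qc.

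Of the identity genes, Cd68 and Csf1r had smaller fitted log2 differences between layers than all 3 C1q chains in each of the 3 comparisons, and Adgre1 had one in spiny mouse alone. These differences between genes were not tested. Cd68, present in the lysosomes of many phagocytes, stood at 31.8 and 35.4 CPM in center epidermis and 153 to 439 CPM (median 319) in center dermis, a log2 difference of 2.43 ± 0.46 (FDR 0.00186), and in the margin the difference was 1.48 ± 0.40 (FDR 0.0113; 0.052 without margin dermis replicate 2). Adgre1 differed by 5.05 ± 0.37 in the center, by 5.18 ± 0.46 in the margin and by 2.94 ± 0.31 in spiny mouse at PWD21. Csf1r was at 18.8 and 13.6 CPM in laboratory mouse center epidermis, with 303 CPM as the median in dermis (3.64 ± 0.27). In spiny mouse epidermis at PWD21 it was at 35.5 and 43.0 CPM beside 77.5 and 58.0 CPM in dermis, a log2 difference of 0.67 ± 0.21 (FDR 0.0265) that no longer passed when either epidermis library was left out (FDR 0.21 and 0.10). Langerhans cells, the macrophage-related cells of the epidermis, also use Csf1r. Beside this, the 10 dendritic and Langerhans cell markers were all detected in both spiny mouse epidermis libraries of PWD21 and summed to 1338 and 1292 CPM there against 913 and 751 CPM in dermis, with 5 of 10 higher in epidermis and 1 higher in dermis. In spiny mouse epidermis at PWD14 the 10 markers summed to between 1397 and 1442 CPM, with Csf1r at 6.05 and 11.4 CPM. Their part in the Csf1r level was not tested.

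Arg1 was the exception among the 10 genes. It was at 431 and 492 CPM in center epidermis and 205 and 71.5 CPM in margin epidermis, against 0 to 68.5 CPM (median 5.03) in center dermis and 4.95 and 5.59 CPM in margin dermis. The log2 fold change of dermis over epidermis was -5.48 ± 1.40 in the center (FDR 0.00939) and -5.58 ± 0.58 in the margin (FDR 3.88e-05). In spiny mouse at PWD21 it was 0.547 and 1.01 CPM in dermis and 85.1 and 121 CPM in epidermis, a log2 fold change of -7.10 ± 0.37 (FDR 7.28e-06). Nos2, its counterpart, was at 0 in 3 of 4 laboratory mouse epidermis libraries and at 0.0883 CPM in the other one. In margin dermis, at 4.13 and 5.50 CPM, it was at least 56.6-fold above the epidermis floor, and in spiny mouse at PWD21 it differed by 3.96 ± 0.57 (4.79 and 4.95 CPM in dermis, 0.414 and 0.0571 CPM in epidermis).

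In each species the dermis library with the most keratinocyte RNA also held the most Arg1, but this order did not hold at lower keratinocyte sums. In spiny mouse dermis the 6 libraries held between 810 and 12477 CPM of the 14 keratinocyte markers, all 14 of which were detected in each. Arg1 ran from 0.118 CPM at PWD14 (keratinocyte sum 1811 CPM) to 62.1 CPM at PWD0 (12477 CPM). The PWD21 libraries, with lower sums of 810 and 1477 CPM, held more Arg1 than that of PWD14, at 0.547 and 1.01 CPM. In the center libraries of the region set, sums of 681 and 499 CPM stood beside 0 and 0.412 CPM of Arg1. K14-Cre-Twist1 replicate 2 had 159 CPM of Arg1 with a keratinocyte sum of 38686 CPM, and replicate 1 had 1.41 CPM with 1103 CPM. The 3 wild-type center libraries of the genotype set went the other way. Replicate 4 held 68.5 CPM of Arg1 with only 46.7 CPM of keratinocyte markers, 5 of the 14 (Krt15, Krt1, Dsg3, Dsc3 and Krtdap) being at 0, and replicates 3 and 5 held 5.03 and 11.9 CPM with 36.3 and 94.7 CPM. Per 1000 CPM of keratinocyte markers, Arg1 was at 1467 CPM in replicate 4, 139 in replicate 3 and 126 in replicate 5, against 0 to 4.98 in all other 22 libraries. Replicate 4 also had the highest sum of the 10 neutrophil markers among laboratory mouse dermis libraries, 872 CPM against 27.5 to 187 CPM, with Elane and Ngp at 0. The part of either cell type in the Arg1 level was not tested.

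**Figure D2:**
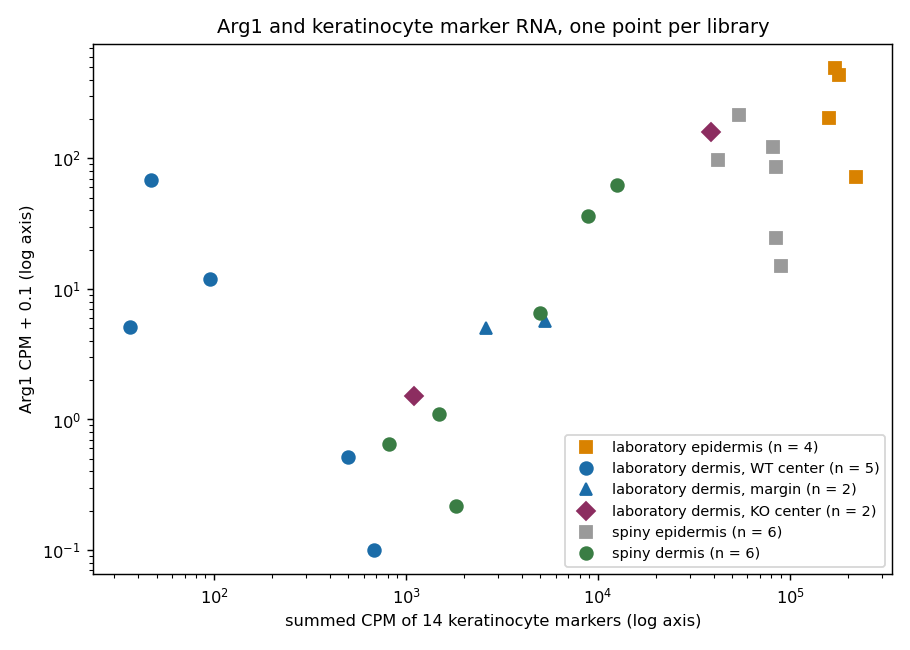
Arg1 level (CPM plus 0.1, log axis) against the summed level of 14 keratinocyte markers (CPM, log axis) in each of the 25 libraries, by species, layer, region and genotype. The 3 wild-type center dermis libraries of the genotype set lie at the left, with 5.03, 68.5 and 11.9 CPM of Arg1 beside keratinocyte sums under 100 CPM.

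Whether macrophage genes differ between the hair-forming wound center and the margin was asked in laboratory mouse dermis of the region set, 2 libraries against 2. None of the 10 genes passed an FDR of 0.05 by edgeR's quasi-likelihood test, where 0.850% of 14698 genes passed, and 2 (Cd68 and Arg1) had an unadjusted p under 0.05. DESeq2 called Cd68 alone, where 738 of 14698 genes passed. Cd68 was at 153 and 180 CPM in the center and 90.7 and 100.2 CPM in the margin, without overlap, and its log2 fold change was 0.89 ± 0.20 (FDR 0.0762). With all 5 wild-type center libraries in the fit it was 1.83 (FDR 0.045), but 3 of those carry the library numbers of the genotype set. Over the 12 alternatives run its FDR ranged from 0.000843 to 0.679.

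Mrc1 lay on the other side, with 306 and 303 CPM in the center and 376 and 471 CPM in the margin (log2 fold change -0.38 ± 0.19, FDR 0.364). Per Csf1r read, Mrc1 was at 1.03 and 1.001 in the center and 1.69 and 1.64 in the margin, while Cd68 was at 0.518 and 0.593 in the center and 0.409 and 0.349 in the margin. Neither ratio overlapped between regions, but an exact 2-sided permutation test of 2 against 2 libraries cannot go below p = 0.333, the value both gave. C1qb per Csf1r read overlapped, at 1.09 and 1.42 in the center and 1.20 and 1.19 in the margin. The remaining chains and identity genes differed by between 0.26 and 0.39 on the log2 scale with SEs of 0.18 to 0.25, and none passed. Cd163 was at 4.40 and 0 CPM in the center and 8.53 and 6.89 CPM in the margin (FDR 0.474).

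**Figure D3:**
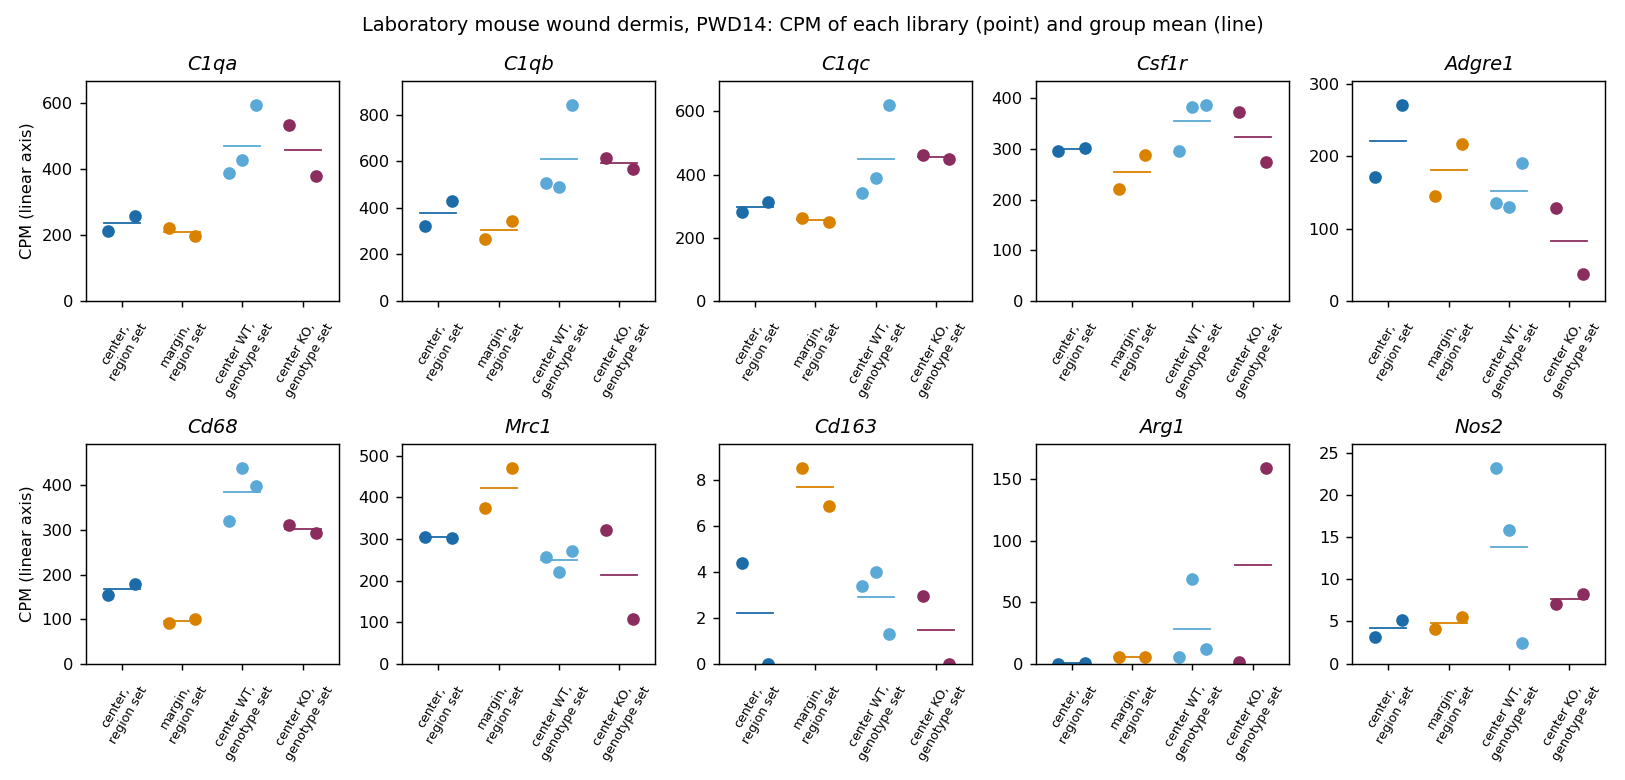
CPM of each gene in each laboratory mouse wound dermis library at PWD14 (points; linear axis from 0), in 4 columns: wild-type center and margin of the region set, then wild-type and K14-Cre-Twist1 (KO) center of the genotype set, with horizontal lines at the column means. Cd68 was at 153 and 180 CPM in the center and 90.7 and 100.2 CPM in the margin, and Adgre1 and Mrc1 of the second KO library, at 37.0 and 107 CPM, lie below the other dermis libraries.

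Nos2 overlapped in part between regions, at 3.17 and 5.20 CPM in the center and 4.13 and 5.50 CPM in the margin. Arg1 was at 0 and 0.412 CPM in the center and 4.95 and 5.59 CPM in the margin (log2 fold change -4.64 ± 1.45, FDR 0.194), and turned to 1.83 with all 5 center libraries. Beside it, the 14 keratinocyte markers summed to 681 and 499 CPM in the center (Dsg3 at 0 in both) and 2594 and 5267 CPM in the margin, with 8 of 14 lower in the center. Their part in the Arg1 difference was not tested. Of the other genes of these pathways, none of 26 macrophage and monocyte genes passed in either direction (median log2 fold change 0.52, against -0.03 over all genes). The 4 with the smallest FDR there included Gpnmb, a lysosomal glycoprotein (1.33, FDR 0.11), and Trem2, a lipid receptor of macrophages (0.73, FDR 0.19). None of 19 tested alternative activation genes passed, those nearest being F13a1, which encodes the A subunit of coagulation factor XIII (-0.95, FDR 0.068), and Igf1, a growth factor (-0.83, FDR 0.075), nor did any of 16 classical activation genes, 15 arginine metabolism genes or 7 partners of C1q.

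Center against margin was also compared in epidermis, where 8 of the 10 genes had enough counts to be tested. None passed by edgeR's quasi-likelihood test, where 1.24% of 14165 genes passed, while 3 had an unadjusted p under 0.05. DESeq2 called Arg1 and C1qc, where 1511 of 14165 genes passed. Arg1 was at 431 and 492 CPM in the center and 205 and 71.5 CPM in the margin (log2 fold change 1.61 ± 0.53, FDR 0.158), and both center libraries exceeded both margin libraries. C1qc was at 7.82 and 7.49 CPM in the center and 2.10 and 1.59 CPM in the margin (2.01 ± 0.42, FDR 0.0864). Markers of other cells lay higher in the same center epidermis libraries. The 15 fibroblast markers summed to 5623 and 6838 CPM in the center and 985 and 2506 CPM in the margin (2 of 15 passed, both higher in the center), and the 7 endothelial markers to 23.5 and 35.2 CPM against 1.72 and 6.63 CPM (none of 7 passed). The 10 neutrophil markers summed to 254 and 405 CPM against 41.3 and 111 CPM (none of 4 tested passed), with Ly6g, Elane, Retnlg and Ngp at 0 in all 4 libraries. Their part was not tested. Csf1r overlapped, at 18.8 and 13.6 against 12.98 and 19.6 CPM. Mrc1 had a negative log2 fold change (-1.18 ± 0.75), and Cd68 (0.73 ± 0.38), C1qb (0.40 ± 0.35) and Adgre1 (0.18 ± 0.52) had positive ones. With libraries left out in turn, Arg1 ran from 1.02 to 2.66, C1qa from 0.82 to 1.03 and C1qc from 1.72 to 2.23. Each of these fits leaves a single library in a group.

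The center-margin difference itself was then compared between layers in 1 fit, as the difference in dermis minus that in epidermis. Arg1 and C1qc passed, both with negative values, where 3.48% of 15531 genes did and 96.1% of the genes that passed were negative. The median of all genes was -0.31 in this contrast, so values are to be read against that shift. Arg1 gave -6.42 ± 1.15 (FDR 0.00914), being lower in the center than in the margin in dermis and higher in epidermis. C1qc gave -1.84 ± 0.37 (FDR 0.0198), at 282 and 314 CPM in center dermis and 264 and 249 CPM in margin dermis beside the epidermal values above. The call of Arg1 was lost when any 1 of the 4 dermis libraries was left out (FDR 0.0561 to 0.133), and that of C1qc when any 1 of these or either center epidermis library was left out (FDR 0.0811 to 0.141). In the same contrast 8 of 14 keratinocyte markers passed (median -2.96), 4 of 15 fibroblast markers (-1.75), 4 of 7 endothelial markers (-3.58) and 2 of 5 tested neutrophil markers (-5.54), all negative. Their part in the values of Arg1 and C1qc was not tested. Among arginine metabolism genes, 4 of 15 passed, with Odc1, which makes polyamines from ornithine, at -3.61 (FDR 0.0097) and Gatm, of creatine synthesis, at -5.28 (FDR 0.027). Arg2, the mitochondrial arginase, was the fourth, with 0 counts in both center dermis libraries and 4.26 and 3.65 CPM in margin dermis.

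The genotype comparison asked what follows in the dermis when Twist1 is lost from keratinocytes. Twist1 itself was at 73.4 and 43.97 CPM in K14-Cre-Twist1 center dermis and 57.7, 36.3 and 105 CPM in the wild type of the same set, which overlapped. None of the 10 genes passed by edgeR's quasi-likelihood test or by DESeq2, and none had an unadjusted p under 0.05, where 0.0565% of 14163 genes passed. C1qa was at 535 and 379 CPM against 387, 426 and 593 CPM (log2 fold change -0.04 ± 0.29), C1qb at 615 and 569 against 507, 490 and 841 CPM (-0.06 ± 0.30), and C1qc at 461 and 449 against 341, 390 and 619 CPM (0.01 ± 0.30). Values of both genotypes interleaved for all 3 chains. Csf1r, at 372 and 274 against 297, 382 and 386 CPM, differed by -0.13 ± 0.25, and Cd68, at 312 and 293 against 319, 439 and 398 CPM, by -0.35 ± 0.23 with both mutant libraries just below the wild type.

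The 2 mutant libraries disagreed for Adgre1, Mrc1 and Arg1. Adgre1 was at 129 and 37.0 CPM against 136, 130 and 191 CPM (-0.87 ± 0.49, FDR 0.503), and Mrc1 at 321 and 107 against 256, 220 and 271 CPM. Replicate 2, with the high keratinocyte sum, was the low one in both, and with that library as the only mutant both genes passed (Adgre1 -2.09, FDR 0.0041; Mrc1 -1.27, FDR 0.011). That fit takes its spread from the wild type alone and assumes the lone library to vary likewise, and 22.5% of 14915 genes passed in it, so that 2 of 10 is near the share of all genes. Without it Mrc1 stood at 0.40 (FDR 0.88). Over 13 alternatives the FDR ranged from 0.00405 to 0.906 for Adgre1 and from 0.0106 to 0.951 for Mrc1. Csf1r and the C1q chains of replicate 2 were not low in this way: C1qb per Csf1r read was 2.08 there and between 1.28 and 2.18 in the other 4 libraries of the set, whereas Adgre1 per Csf1r read was 0.135 against 0.341 to 0.4934. Arg1 gave 1.53 ± 1.29, and -4.18 (FDR 0.83) without replicate 2. Nos2 was at 7.11 and 8.20 against 23.2, 15.9 and 2.39 CPM (-0.86 ± 0.89). Of 26 macrophage and monocyte genes, 20 alternative and 17 classical activation genes, none passed.

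**Figure D4:**
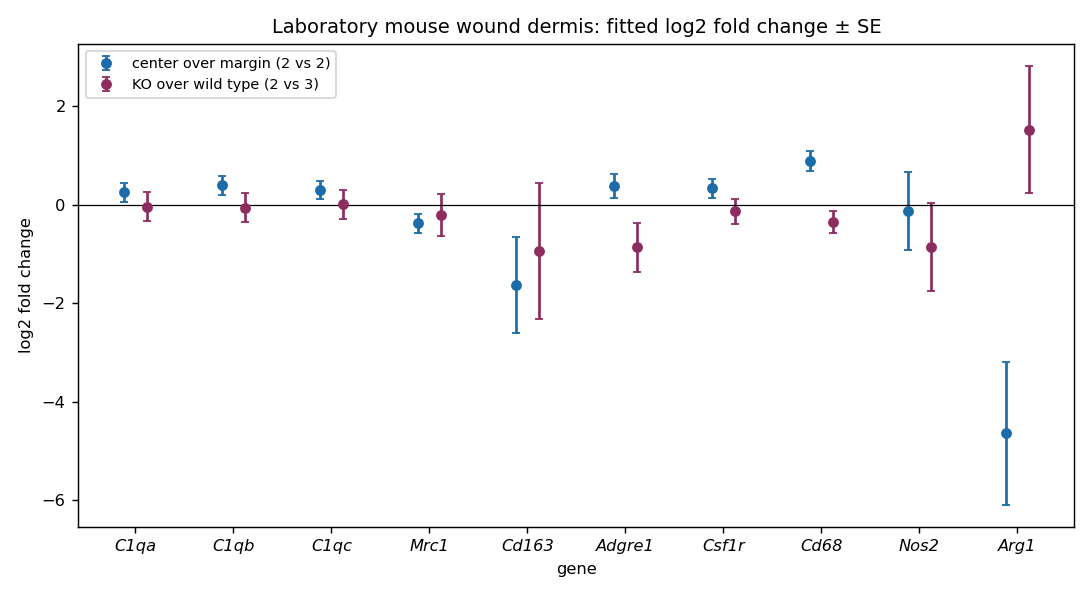
Fitted log2 fold change (vertical axis, log2 scale; bars are ± 1 SE) of each gene in laboratory mouse wound dermis, for center over margin (2 against 2 libraries) and K14-Cre-Twist1 over wild type (2 against 3). C1qa, C1qb and C1qc lie within 0.06 of 0 for genotype, and the widest bars are those of Arg1, Cd163 and Nos2.

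The wild-type center dermis itself differed between the sets, which hold libraries of the same labelled condition and were told apart by library number alone. Cd68 was at 153 and 180 CPM in the region set and 319, 439 and 398 CPM in the genotype set, C1qa at 213 and 257 against 387, 426 and 593 CPM, and C1qb at 323 and 430 against 507, 490 and 841 CPM, with no overlap for any of the 3. Mrc1 went the other way, at 306 and 303 against 256, 220 and 271 CPM. Csf1r overlapped, at 296 and 303 against 297, 382 and 386 CPM. Beside this, keratinocyte markers summed to 499 to 681 CPM in the region set and 36.3 to 94.7 CPM in the genotype set, and the 26 macrophage and monocyte genes to 8584 and 10572 CPM against 9546, 14329 and 12305 CPM. The cause was not tested, and the set cannot be told apart from any difference between the animals, strain included.

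In the spiny mouse the question was how these genes move over the course of wound repair, with unwounded dermis as the start. PWD21 was compared with PWD0, 2 libraries against 2. Of the 10 genes, 3 passed, Csf1r and Nos2 upward and Arg1 downward, where 26.2% of 14481 genes passed. Csf1r rose from 17.5 and 36.7 CPM to 77.5 and 58.0 CPM, without overlap (log2 fold change 1.25 ± 0.35, FDR 0.0307). Nos2 rose from 0 and 1.18 CPM to 4.79 and 4.95 CPM (2.91 ± 0.86, FDR 0.0393). Arg1 fell from 62.1 and 36.3 CPM to 0.547 and 1.01 CPM (-6.09 ± 0.54, FDR 0.000332). The calls of Csf1r and Nos2 were lost when either PWD21 library was left out (FDR 0.087 to 0.23), and that of Csf1r also without PWD0 replicate 1 (FDR 0.076). Over 11 alternatives the FDR ranged from 0.000428 to 0.165 for Csf1r and was at most 0.00465 for Arg1. In the same comparison 11 of 14 keratinocyte markers fell, their sum going from 8804 and 12477 CPM to 810 and 1477 CPM, as did 7 of 7 mast cell markers (5376 and 5915 to 485 and 659 CPM) and 7 of 7 adipocyte markers (950 and 980 to 125 and 251 CPM, with Retn at 0 in both PWD21 libraries), while 8 of 15 fibroblast markers rose. Their part in these changes was not tested.

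**Figure D5:**
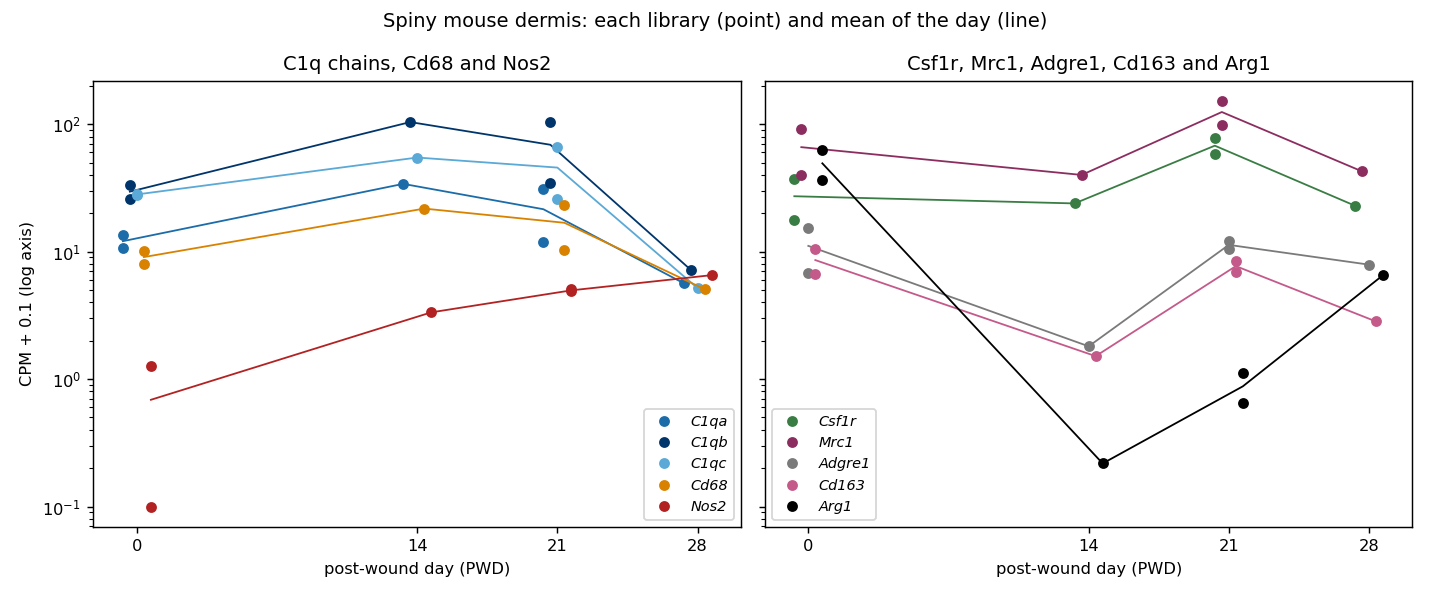
CPM plus 0.1 (log axis) of each gene in spiny mouse dermis against post-wound day; points are libraries (2 at PWD0, 1 at PWD14, 2 at PWD21, 1 at PWD28), shifted sideways by gene, and lines join the means of each day. C1qb reached 104 CPM at PWD14 and was at 7.12 CPM at PWD28, while Arg1 was lowest at PWD14, at 0.118 CPM.

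Mrc1, Cd68 and the C1q chains had higher means at PWD21 but spread widely. Mrc1 was at 39.7 and 92.1 CPM at PWD0 and 151 and 97.8 CPM at PWD21 (0.85 ± 0.37, FDR 0.121). C1qb was at 33.2 and 25.7 CPM at PWD0, and its 2 libraries of PWD21 stood far apart, at 103 and 34.3 CPM (1.08 ± 0.48, FDR 0.126). C1qa and C1qc split in the same way, at 31.1 and 11.8 CPM and at 65.5 and 25.6 CPM, as did Cd68 at 23.3 and 10.2 CPM, so that replicate 1 of PWD21 exceeded replicate 2 by between 2.28- and 3.01-fold in these 4 genes and by 1.34-fold in Csf1r. Adgre1 (6.70 and 15.3 against 11.9 and 10.4 CPM) and Cd163 (6.53 and 10.4 against 8.35 and 6.85 CPM) overlapped fully.

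At PWD14 spiny mouse dermis had 1 library, which was assumed to vary like the other days in a fit of all 6 dermis libraries. Of the 10 genes, 4 passed against PWD0, where 18.5% of 15344 genes did. C1qb rose to 104 CPM from 33.2 and 25.7 CPM, a log2 fold change of 2.03 ± 0.55 (FDR 0.0367). The exact binomial 95% interval of its count at PWD14 was 99.0 to 109 CPM. C1qa, at 33.9 CPM, and Cd68, at 21.7 CPM, were above both PWD0 libraries without passing (1.74 ± 0.52, FDR 0.0521; 1.51 ± 0.51, FDR 0.0722). Adgre1 fell to 1.71 CPM (-2.42 ± 0.61, FDR 0.0283) and Cd163 to 1.41 CPM (-2.33 ± 0.59, FDR 0.0294). Both of these calls were lost when either PWD21 library was left out (FDR 0.066 to 0.079). Arg1 fell to 2 counts, 0.118 CPM (interval 0.0143 to 0.425 CPM), which puts the PWD0 mean at 418 times that level with a counting interval of 116 to 3450 (FDR 0.00115). C1qc, at 54.6 CPM, and Nos2, at 3.24 CPM, were also above both PWD0 libraries without passing (1.19 ± 0.49 and 2.64 ± 0.96). Csf1r, at 23.8 CPM, and Mrc1, at 39.9 CPM, lay between the PWD0 libraries. With each of the other 5 libraries left out in turn, C1qa ran from 1.68 to 1.85, and its side of the threshold was not stable.

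The PWD14 library thus held the C1q chains and Cd68 above both PWD0 libraries, though C1qa, C1qc and Cd68 did not pass. Replicate 1 of PWD21 had similar levels, with C1qb at 103, C1qc at 65.5 and Cd68 at 23.3 CPM. In the PWD14 library, Adgre1 and Cd163 were low, at a Csf1r level like that of unwounded dermis. Per Csf1r read, C1qb was at 4.36 at PWD14 and between 0.312 and 1.90 in the other 5 dermis libraries, and Adgre1 at 0.0718 against 0.154 to 0.416. Mrc1 over C1qb was 0.384 at PWD14, 1.20 and 3.58 at PWD0, 1.46 and 2.85 at PWD21 and 5.97 at PWD28. In the same library the 10 neutrophil markers summed to 102 CPM against 2.73 to 11.3 CPM on other days (S100a8, Mpo, Elane and Retnlg at 0), the 7 mast cell markers to 95.2 CPM against 5376 and 5915 CPM at PWD0, and the keratinocyte markers to 1811 CPM against 8804 and 12477 CPM, with 10 of 14 lower than at PWD0. Their part was not tested.

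At PWD28, again with 1 library, Arg1 and C1qc passed against PWD0, both downward, where 5.31% of genes passed. C1qc fell from 28.2 and 27.8 CPM to 5.07 CPM (-2.72 ± 0.60, FDR 0.0388) and Arg1 to 6.44 CPM (-3.22 ± 0.65, FDR 0.0293). Both calls held in every alternative run, with an FDR of at most 0.0408 for C1qc and 0.0428 for Arg1. Beside them, 4 of 7 mast cell, 5 of 7 adipocyte and 2 of 14 keratinocyte markers fell and 5 of 15 fibroblast markers rose, the keratinocyte sum being 4996 CPM, the mast cell sum 1406 CPM and the adipocyte sum 299.7 CPM with Lep and Retn at 0. Their part was not tested. C1qb at 7.12 CPM (-2.31 ± 0.65, FDR 0.0813), C1qa at 5.56 CPM and Cd68 at 4.97 CPM were below both PWD0 libraries as well without passing. DESeq2 added C1qb and Nos2, but it passed more of all genes as well. Mrc1 (42.5 CPM), Csf1r (22.8 CPM) and Adgre1 (7.80 CPM) lay within the range of PWD0. Cd163, at 2.73 CPM, was below both PWD0 libraries without passing (-1.86 ± 0.58). Nos2 was at 6.44 CPM, above both PWD0 libraries (3.15 ± 0.95, FDR 0.0966).

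Wider lists were counted at each day in spiny mouse dermis against the share of all tested genes, which was 12.0% higher and 14.2% lower at PWD21, 7.95% and 10.5% at PWD14, and 2.58% and 2.72% at PWD28. At PWD21, 5 of 23 tested macrophage and monocyte genes were higher and 2 lower than at PWD0 (median log2 fold change -0.04, all genes 0.03), in all near the share of all genes. Gpnmb (1.30, FDR 0.012) and Mpeg1, a pore-forming protein of phagocytes (1.20, FDR 0.021), rose, and Fcgr1, a receptor for antibody (-2.97, FDR 0.0022), and Apoe (-2.87, FDR 0.0095) fell. At PWD14, 3 of 24 rose and 3 fell, Trem2 among the former (3.13, FDR 0.0091). Of classical activation genes, 5 of 15 fell at PWD21 and none rose, led by Il6 (-3.59, FDR 0.00033) and Ptgs2, which makes prostaglandins (-2.79, FDR 0.0029), and at PWD14 3 fell while Il1b rose (1.32, FDR 0.028). Of alternative activation genes, 3 of 15 fell at PWD21, F13a1 (-1.60, FDR 0.0076), Lyve1 (-2.80, FDR 0.013) and Il10 (-2.71, FDR 0.029), and Clec7a rose (2.77, FDR 0.033). At PWD14, 4 of 15 alternative activation genes fell and none rose (median -2.24, all genes -0.05), F13a1 among them (-5.13, FDR 0.00071). At PWD28, 2 of 24 macrophage and monocyte genes fell and none rose (median -1.04, all genes 0.01), Fcer1g, the signaling chain of antibody receptors (-2.29, FDR 0.040), and Apoe (-2.83, FDR 0.0496), beside 1 of 15 alternative activation genes, F13a1 (-3.46, FDR 0.0068), and 1 of 15 classical activation genes, Il6 (-3.50, FDR 0.0056).

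Among the partners of C1q, 4 of 6 tested genes rose at PWD21 and none fell (median 1.39), where 12.0% of all genes rose. C1s1 (1.92, FDR 0.0059) and C1ra (1.32, FDR 0.011) encode the proteases that C1q binds to start the classical pathway, and both also passed at PWD14 (2.13 and 1.14), but are made by fibroblasts, whose 15 markers included 8 that were higher at PWD21. The part of fibroblasts was not tested. Among the factors that feed macrophages, Csf1 was at -0.82 (FDR 0.069) at PWD21 and fell at PWD14 (-1.39, FDR 0.039). Ccl2 and Ccl7, which draw monocytes, fell at PWD21 (-1.13 and -1.61).

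Spiny mouse epidermis could be compared between PWD14 and PWD21, 2 libraries each, with 8 of the 10 genes tested. Of these, 6 passed, where 46.6% of 12889 genes passed. The C1q chains were higher at PWD14, C1qb at 6.74 and 5.998 CPM against 2.01 and 1.94 CPM (2.22 ± 0.34, FDR 0.000502), C1qc at 4.96 and 3.64 against 1.42 and 1.71 CPM (2.02 ± 0.40, FDR 0.00212) and C1qa at 1.32 and 1.72 against 0.207 and 0.457 CPM (2.90 ± 0.65, FDR 0.00393; 0.082 without PWD21 replicate 1). Cd68 was higher too, at 10.9 and 7.98 against 4.76 and 4.34 CPM (1.58 ± 0.30, FDR 0.00172). Csf1r went the other way, at 6.05 and 11.4 against 35.5 and 43.0 CPM (-1.60 ± 0.27, FDR 0.000784), and so did Arg1, at 14.8 and 24.6 against 85.1 and 121 CPM (-1.83 ± 0.24, FDR 0.000214). No library of one day overlapped the other in these 6 genes. The 10 dendritic and Langerhans cell markers summed to between 1397 and 1442 CPM at PWD14 and between 1292 and 1338 CPM at PWD21. Of 9 tested, 3 were higher and 1 lower at PWD14. The neutrophil markers summed to 2503 and 1512 CPM at PWD14, with 8 and 4 of the 10 at 0, and to 408 and 181 CPM at PWD21, and 4 of 14 keratinocyte markers were higher and 2 lower at PWD14. Their part was not tested.

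The 3 C1q chains kept closer proportions in laboratory mouse dermis than in spiny mouse dermis. Per length and relative to C1qb, C1qa ran from 0.603 to 0.910 and C1qc from 0.609 to 0.892 over the 9 laboratory mouse dermis libraries. In laboratory mouse epidermis C1qc ran from 0.165 to 0.764 and C1qa from 0.691 to 1.43. In spiny mouse dermis C1qc ran from 0.476 to 0.977 and C1qa from 0.314 to 0.817. The alignment of spiny mouse reads to mouse genes can shift a proportion, and its part in the spread between these libraries was not tested. Across the libraries of each species' dermis, Pearson's r of log2 CPM between chains was 0.95 to 0.96 in laboratory mouse (n = 9) and 0.94 to 0.98 in spiny mouse (n = 6). These points share their libraries, sets and days, and the values are descriptions. Cd68 followed the chains (r with C1qa 0.93 and 0.99), and was the gene most like C1qa of 12650 genes by the mean of both r values (0.96), ahead of C1qb, C1qc, Cfl1 and Tmem176b. Mrc1 did not (r with C1qb -0.40 and 0.44), and its nearest gene was Inpp4b (mean r 0.96), followed by Smc6, Unc13b, Cacna2d1 and Lipt1. Csf1r was most like Msn (mean r 0.87), followed by Adgre5 and Itgb2, and Arg1 most like Adipor2 (0.94), Acsl1, Hspb8, Pon2 and Macrod1, none of which is another of the 10 genes.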

How the data were processed

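For each of the 25 libraries the authors deposited unnormalized read counts, as 24500 gene rows and 5 summary lines, the latter left out. Per the labels, reads were aligned to mm10 with STAR 2.4.1d and counted with HTSeq 0.6.0. Laboratory mouse libraries were strand-specific and spiny mouse libraries were not, so in the latter reads from opposite strands of an overlap cannot be told apart. Small predicted or microRNA genes overlap Adgre1, Csf1r, Mrc1, Cd163 and Arg1. Their strands were not examined, and their effect on the counts was not tested. Of the deposited counts, CPM was taken over all gene rows. Fold changes, SEs and FDRs (Benjamini-Hochberg over all tested genes) came from edgeR 4.0.16 in R 4.3.3, with TMM normalization, filterByExpr and the quasi-likelihood test, tested on simulated data. Each comparison used its own libraries, except that the PWD14 and PWD28 spiny mouse dermis comparisons used all 6. SEs were derived from the fold change and its F statistic. Differences were called at an FDR under 0.05. A floor of 3 counts and 95% exact binomial intervals cover counting error only. Replicates are separate samples in the labels, and p-values measure the spread between them.

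Levels per kilobase used the principal transcript of GENCODE M21, and positions the RefSeq table of GRCm38. All 10 genes were examined in every comparison, but not each of them is reported for each comparison. From each further list up to 4 genes with the smallest FDR could be named. By likeness the 5 genes with the highest mean Pearson r were taken for Csf1r, Mrc1, Arg1 and C1qa, with a minimum mean of 1 CPM, on log2 of CPM plus 0.5 (for Csf1r only the nearest 3 are reported here). The genes and lists were chosen with earlier results of these data known. The set of each wild-type center dermis library was inferred from library numbers the study prints. Laboratory mouse epidermis was sequenced paired-end and all other libraries single-end. The alternatives were DESeq2 1.42.0, RLE factors, library size alone, no filter, at least 10 counts in every library, wider sets of libraries, each library left out and, added after seeing the data, the quasi-likelihood estimate of edgeR 3. Further lists checked were markers of leukocytes, T cells, B cells, endothelium, skeletal muscle and fat.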

Additional observations from a re-analysis of the deposited data

Results flagged for a closer look

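Among the 5 wild-type center dermis libraries, the Arg1 level of replicate 4, 68.5 CPM, stood far from the other 4 (0 to 11.9 CPM). It was the 1 of 10 genes for which a library stood out in that group by Dixon's test. The test flags about 5% of groups by chance if values are normal and from 1 population. Here it was run on CPM without a log scale and over both sets pooled, so that rate may not hold. The center-margin difference was unlike between dermis and epidermis for Arg1, with a log2 difference of -6.42 ± 1.15 (FDR 0.00914), and for C1qc, with -1.84 ± 0.37 (FDR 0.0198), by the interaction term of edgeR's quasi-likelihood test. With 1 of the 8 libraries left out in turn, the call was lost in 4 fits for Arg1 and in 6 for C1qc, and 519 of the 540 genes called in this contrast were negative. The cause of any of the 3 was not tested.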

How the results depend on the processing

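Of 1214 fold changes of the 10 genes recomputed under the alternatives, 1102 kept their direction and their side of the threshold. The layer differences were the steadiest: under every alternative run, no gene changed direction between dermis and epidermis in the laboratory mouse center, the laboratory mouse margin or spiny mouse PWD21. No paired analysis was possible because the labels give no replicate numbers that link libraries across groups.

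The number of the 10 genes past the threshold changed under some settings. The number over all genes, given further below, moved as well, and the counts are to be read beside it. DESeq2 gave 1 for dermis center against margin, 2 for epidermis center against margin and 4 for spiny mouse dermis PWD28 against PWD0, and all 5 wild-type center libraries gave 1 for dermis center against margin. Requiring at least 10 counts in every library gave 1 for the difference of center-margin contrasts. With single libraries left out the number ran from 0 to 2 for genotype (2 without K14-Cre-Twist1 replicate 1), from 1 to 4 for PWD21 against PWD0 (1 without PWD21 replicate 1), from 3 to 7 for PWD14 (7 without PWD0 replicate 2), from 2 to 4 for PWD28 (4 without either PWD0 library), from 0 to 4 for epidermis center against margin (4 without either margin library) and from 0 to 2 for the difference of center-margin contrasts (0 without any 1 of the 4 dermis libraries).

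Signs turned only for genes that had not passed. With all 5 wild-type center libraries, dermis center over margin gave 1.83 for Arg1 and 1.27 for Nos2, and K14-Cre-Twist1 over wild type gave 0.035 for Cd68, 0.30 for C1qa and 0.21 for C1qb, while all 9 dermis libraries in 1 fit gave -0.0121 for C1qc. With library size alone, Adgre1 gave 0.022 at spiny mouse dermis PWD21 and -0.29 for spiny mouse epidermis PWD14 over PWD21, Csf1r gave -0.19 at dermis PWD14 and Cd68 -0.0398 in the difference of contrasts. Without a filter, Adgre1 gave 0.029 at PWD21. In the difference of contrasts C1qb gave 0.0057 with RLE factors and 0.014 with DESeq2.

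With single libraries left out, Nos2 ran from -0.47 to 0.17 in dermis center over margin. For genotype, C1qa ran from -0.36 to 0.22, C1qb from -0.21 to 0.26, C1qc from -0.14 to 0.33, Csf1r from -0.42 to 0.10, Mrc1 from -1.27 to 0.40, Cd163 from -9.10 to 0.11 and Arg1 from -4.18 to 3.20. At spiny mouse dermis PWD21, C1qa ran from -0.070 to 1.26, C1qc from -0.19 to 1.10 and Adgre1 from -0.41 to 0.51. At PWD14, Csf1r ran from -0.29 to 0.62 and Mrc1 from -0.87 to 0.18, and at PWD28 Csf1r ran from -0.82 to 0.075. In epidermis center over margin, Csf1r ran from -0.34 to 0.17 and Adgre1 from -0.37 to 0.68. In spiny mouse epidermis, Mrc1 ran from -2.40 to 0.59 and Adgre1 from -1.90 to 0.94. In the difference of contrasts, C1qb ran from -0.47 to 0.26, Adgre1 from -0.42 to 0.58, Cd68 from -0.53 to 0.44, Mrc1 from -0.24 to 1.44 and Csf1r from -0.0015 to 0.58. The cause was not tested.

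Over all genes, the number called moved by over 1.5 times in most comparisons, settings first and single libraries left out second. Dermis center against margin had 125, with 5 to 738 and 19 to 241, genotype 8, with 0 to 787 and 1 to 3353, and epidermis center against margin 176, with 139 to 1511 and 70 to 7405 (0 with the estimate of edgeR 3). The difference of contrasts had 540, with 204 to 1125 and 167 to 1343, and PWD28 814, with 862 to 1720 and 452 to 3192. With libraries left out, PWD21 had 1311 to 5118 beside 3792, PWD14 1888 to 4219 beside 2838, spiny mouse epidermis 3470 to 6635 beside 6002, laboratory mouse center layers 5054 to 7885 beside 7777 and margin layers 4508 to 7623 beside 7141. Groups of 1 to 3 libraries limit all of these, and genes under about 1 CPM in spiny mouse dermis at PWD0, where 3 counts equal up to 0.529 CPM, were near the depth limit.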
